A study of Mus musculus with 6 samples.

Results

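Psmb8, Psmb9, Psmb10, Psme1, Psme2, Tap1, Tap2, Tapbp, Tapbpl and Erap1 are the genes of the immunoproteasome, its PA28 activator, the TAP peptide transporter and the factors that trim peptides and load them onto MHC class I. These 10 genes were taken by name from a table of 23107 genes, and all 10 were present and well counted. The table holds RNA-seq counts of mouse myeloid cells sorted from gliomas for the surface markers CD11b and Gr-1, with 3 libraries from tumours of wild-type IDH1 genotype (wtIDH1) and 3 from tumours of mutant IDH1 genotype (mIDH1). All mice were of the C57BL/6 background, and the labels give no age, no treatment, no other allele of the tumours and no statement on whether replicates came from separate mice. A p-value here is therefore set against differences among the 3 libraries of a group, some of which may be technical. The comparison asks how expression in these cells differed with the IDH1 genotype of the tumour.

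As background, the proteasome cuts cytosolic proteins into peptides with 3 catalytic subunits, encoded by Psmb5, Psmb6 and Psmb7. Interferon gamma and, more weakly, type I interferon induce the replacements Psmb8, Psmb9 and Psmb10, and the resulting immunoproteasome favours peptide ends that fit MHC class I. PA28, a ring of the Psme1 and Psme2 products, opens the core of the proteasome. Tap1 and Tap2 encode the chains of the transporter that moves peptides into the endoplasmic reticulum, where the Erap1 product trims them and tapasin (Tapbp) and its relative TAPBPR (Tapbpl) edit what class I molecules carry. Myeloid cells use this pathway to display peptides to CD8 T cells.

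Library totals lay between 19728205 and 35093265 counts, and the member genes had between 704 and 32882 counts in a library. Levels are given as CPM, counts scaled to library size, after TMM scaling, a method that corrects for differences in RNA composition. CD11b's gene Itgam was at 1780 to 2058 CPM in wtIDH1 and 1832 to 2224 CPM in mIDH1, and the pan-leukocyte gene Ptprc at 885 to 1308 CPM over all 6 libraries. Ly6c2, of the Gr-1 epitope, lay between 120 and 215 CPM in wtIDH1 and between 33.8 and 54.3 CPM in mIDH1. The neutrophil markers summed to 322 to 392 CPM in wtIDH1 and 382 to 396 CPM in mIDH1, but the sums hid opposite changes. Csf3r, the largest part, fell (248 to 273 CPM against 110.1 to 176 CPM), Cxcr2 and Mmp8 rose, and 7 of the 8 tested lay above 0 (median log2 fold change 1.32).

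Sequences before the RefSeq starts of some of these genes are shown because interferon response elements are the textbook link between interferon and this gene set. Psmb9 and Tap1 lie head to head on chromosome 17, with 225 bases between their RefSeq starts (GRCm38.p6), next to Psmb8 and Tap2. The stretch between the starts is given on the strand of Tap1, so Tap1 starts just after its last base and Psmb9 starts, on the other strand, just before the leftmost base. The other 3 windows run from 250 bases before the RefSeq start to 20 bases after it, and capitals mark matches to the motifs searched. The GENCODE annotation, used for gene positions below, places starts elsewhere. Its spans of Psmb8, Psme1 and Erap1 begin at bases 34197721, 55578123 and 74639568, and that of Psmb9 runs to 34187764. By GENCODE the printed stretches thus lie within genes, and which starts these cells use was not tested.
Tap1 and Psmb9, chr17:34187331-34187555, plus strand: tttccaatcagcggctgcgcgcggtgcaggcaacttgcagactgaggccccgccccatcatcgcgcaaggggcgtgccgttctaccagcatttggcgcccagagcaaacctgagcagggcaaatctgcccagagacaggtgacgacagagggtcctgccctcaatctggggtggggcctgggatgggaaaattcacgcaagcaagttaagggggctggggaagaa
Psmb8, chr17:34197945-34198214, plus strand: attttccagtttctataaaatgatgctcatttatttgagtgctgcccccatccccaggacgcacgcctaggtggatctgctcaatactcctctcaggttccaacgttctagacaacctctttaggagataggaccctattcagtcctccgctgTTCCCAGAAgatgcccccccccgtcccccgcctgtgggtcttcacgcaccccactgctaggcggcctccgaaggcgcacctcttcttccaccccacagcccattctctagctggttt
Psme1, chr14:55578244-55578513, plus strand: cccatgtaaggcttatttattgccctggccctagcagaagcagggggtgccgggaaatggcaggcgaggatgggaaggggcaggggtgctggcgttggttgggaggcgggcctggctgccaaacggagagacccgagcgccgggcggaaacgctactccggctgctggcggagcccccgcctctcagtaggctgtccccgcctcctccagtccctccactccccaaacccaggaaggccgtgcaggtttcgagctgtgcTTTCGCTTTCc
Erap1, chr13:74639603-74639872, plus strand: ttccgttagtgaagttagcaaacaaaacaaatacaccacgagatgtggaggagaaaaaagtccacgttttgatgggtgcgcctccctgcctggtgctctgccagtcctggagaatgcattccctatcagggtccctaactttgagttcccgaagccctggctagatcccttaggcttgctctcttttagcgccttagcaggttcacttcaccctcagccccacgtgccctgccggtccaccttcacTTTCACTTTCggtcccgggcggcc

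RefSeq windows of 300 bases, 250 before and 50 after the start, were found for 8 of the 10 genes, not for Tap2 and Tapbpl. The core of the interferon-stimulated response element (GAAA, any 2 bases, GAAA, on either strand) occurred in Psme1 and Erap1, on the strand opposite to the gene. Of the 27025 genes with a window, 3.99% held it. The core of the gamma-activated site (TTC, any 3 bases, GAA, which reads alike on both strands) occurred in Psmb8 and in 9.55% of all genes. An NF-kB motif (GGG, any 2 bases, TTTCC, on either strand) occurred in none of the 8 genes and in 1.89% of all genes. Such matches describe letters in these windows only, and an element may lie outside them.

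None of the 10 genes passed the test between the genotypes, and the mean of 9 of them was lower in mIDH1. By edgeR's quasi-likelihood test none of the 10 passed an adjusted p of 0.05, against 8.17% of the 12950 genes tested (5.39% lower and 2.78% higher in mIDH1). DESeq2 and limma voom also called none, and 1 of the 10, Tap2, had an unadjusted p under 0.05, as did 22.2% of all genes (12.1% in its direction, lower in mIDH1). Of the 10 log2 fold changes, mIDH1 minus wtIDH1 (log2 change below), 9 were negative, as were 46.6% over all genes, and Erap1 alone was positive. Their median was -0.26, beside 0.055 over all genes tested. The groups did not overlap for Psme1 and Tapbpl, both lower in mIDH1, a pattern found in 14.9% of all genes tested, or 28.9% with either direction counted. Adjusted p ran from 0.205 to 0.800. The 95% intervals reached down to a fold of 0.477 for Psmb9 and up to 1.62 for Erap1, and all but that of Tap2 included no change. Without mIDH1 replicate 1, Psme2 passed as lower (log2 fold change -0.78, adjusted p = 0.0254) and the median was -0.43, and without mIDH1 replicate 3 the median was -0.11.

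**Figure D1:**
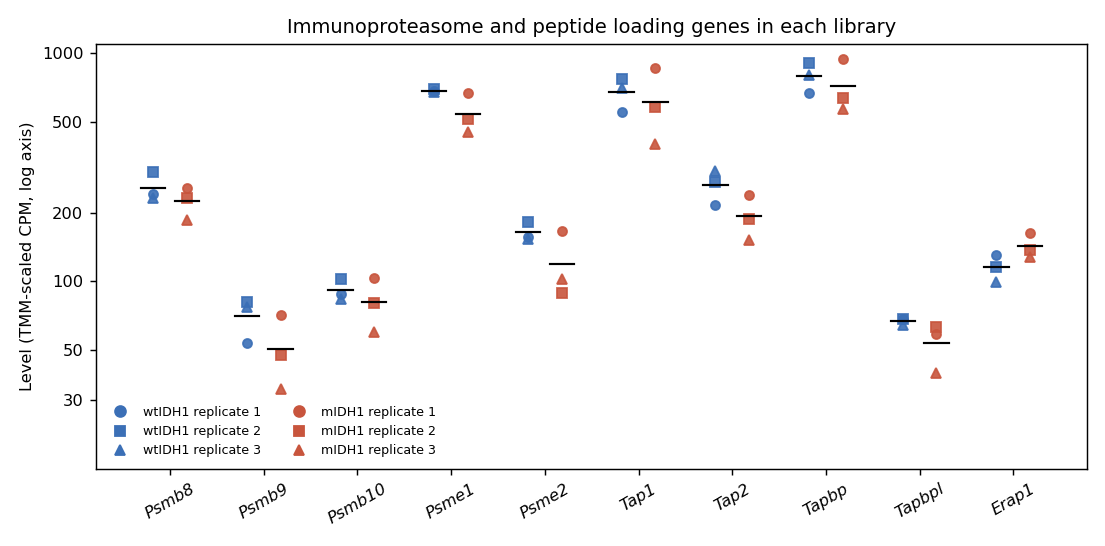
Level of each member gene in the 6 libraries, as TMM-scaled CPM on a log axis, with a short line at the mean of each group of 3. Psme1 and Tapbpl are the genes whose groups do not overlap, and mIDH1 replicate 3 has the lowest value for 8 of the 10 genes.

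**Figure D2:**
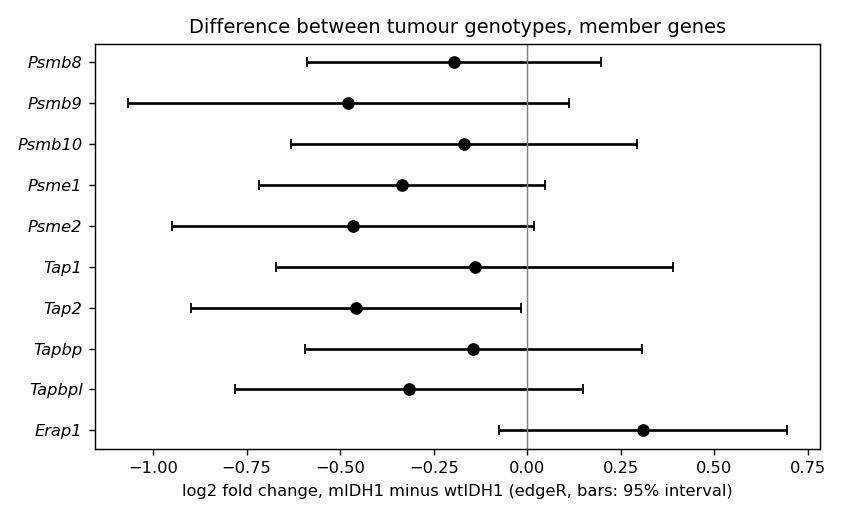
Log2 fold change of each member gene, mIDH1 minus wtIDH1, from edgeR with its 95% interval. The point for Erap1 lies at 0.31 and the other 9 lie below 0, from -0.14 to -0.48.

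The catalytic subunits of the immunoproteasome did not pass the test. Psmb8, the replacement of Psmb5 (chromosome 17, 34197721 to 34201454 in the GRCm38 annotation), was at 241, 300.02 and 231 CPM in wtIDH1 replicates 1 to 3 and at 257, 232 and 185 CPM in mIDH1. Its groups overlapped, with mIDH1 replicate 3 below all others. The log2 fold change was -0.20 ± 0.18 SE (adjusted p = 0.590), a fold of 0.873 with a 95% interval from 0.664 to 1.15. Psmb9, the replacement of Psmb6 (chromosome 17, 34181987 to 34187764), was at 53.7, 81.2 and 76.6 CPM in wtIDH1 and at 70.8, 47.4 and 33.5 CPM in mIDH1. It had the most negative log2 fold change of the 10 genes, -0.48 ± 0.27 SE (adjusted p = 0.337), with the largest SE of the 10. The highest mIDH1 library exceeded the lowest wtIDH1 library. Psmb10, the replacement of Psmb7 (chromosome 8, 105935735 to 105938444), was at 88.2, 102 and 83.6 CPM in wtIDH1 and at 103, 80.3 and 59.8 CPM in mIDH1. The highest and the lowest of its 6 values were both mIDH1 libraries (log2 change -0.17 ± 0.21 SE, adjusted p = 0.711), and without mIDH1 replicate 3 the value turned to 0.0097.

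The constitutive counterparts were measured beside them. Psmb5 was at 31.2, 26.4 and 38.8 CPM in wtIDH1 and at 62.6, 43.7 and 39.6 CPM in mIDH1, with groups that touched closely but did not overlap (log2 change 0.60 ± 0.26 SE, adjusted p = 0.185). Psmb7 had a log2 fold change of 0.42 (adjusted p = 0.355) and Psmb6 one of -0.0061 (adjusted p = 0.988). The balance of each pair was read as the log2 ratio of its counts within a library, which does not depend on how libraries are scaled. For Psmb8 over Psmb5 this ratio was 2.95, 3.50 and 2.57 in wtIDH1 and 2.04, 2.41 and 2.22 in mIDH1. Every mIDH1 library thus lay below every wtIDH1 library. The means differed by -0.79 ± 0.29 SE, with p = 0.1 in the exact two-sided permutation test, the smallest that 3 against 3 libraries allow, and 0.35 after Benjamini-Hochberg adjustment over the 7 ratios examined. Per base of annotated exon, the ratio of Psmb8 to Psmb5 went from 4.33 in wtIDH1 to 2.51 in mIDH1. Psmb9 over Psmb6 differed by -0.51 ± 0.34 SE and Psmb10 over Psmb7 by -0.62 ± 0.40 SE, each with overlapping groups and p = 0.3 in the exact permutation test. Per base of exon these ratios were 0.328 and 0.230 for Psmb9 to Psmb6, and 2.89 and 1.88 for Psmb10 to Psmb7, in wtIDH1 and mIDH1. The means of the 3 immunoproteasome ratios were lower in mIDH1, and with 3 libraries a group this test could not reach 0.05 for any of them.

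Neither gene of PA28 passed with all libraries, and both means were lower in mIDH1. Psme1, which encodes the alpha chain (chromosome 14, 55578123 to 55581529), was at 686, 696 and 678 CPM in wtIDH1 and at 669, 513 and 450.3 CPM in mIDH1. The wtIDH1 libraries had an SD of 9.40 CPM and the mIDH1 libraries one of 113 CPM (n = 3 each), and mIDH1 replicate 1 lay just below the wtIDH1 range. The log2 fold change was -0.33 ± 0.18 SE (adjusted p = 0.295; fold 0.793, 95% interval 0.608 to 1.03). Psme2, which encodes the beta chain (chromosome 14, 55587441 to 55591113), was at 157, 182 and 154 CPM in wtIDH1 and at 166, 89.0 and 102 CPM in mIDH1. Here mIDH1 replicate 1 lay inside the wtIDH1 range and the other mIDH1 libraries lay far below it (log2 change -0.47 ± 0.22 SE, adjusted p = 0.244, or 0.0254 without mIDH1 replicate 1). The log2 ratio of Psme1 to Psme2 counts differed by 0.16 ± 0.17 SE (exact permutation p = 0.4), and per base of exon Psme1 exceeded Psme2 by 3.35-fold in wtIDH1 and 3.74-fold in mIDH1. Psme2b, a gene similar to Psme2 on chromosome 11, was not analysed here, so reads shared with it make the value of Psme2 uncertain.

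The transporter genes had overlapping groups. Tap1 (chromosome 17, 34187553 to 34197225) was at 551, 775 and 702 CPM in wtIDH1 and at 859, 579 and 402 CPM in mIDH1. Both extremes were mIDH1 libraries (log2 change -0.14 ± 0.24 SE, adjusted p = 0.800), and without mIDH1 replicate 3 the log2 fold change was 0.089. Tap2 (chromosome 17, 34203527 to 34216321) was at 215, 272 and 305 CPM in wtIDH1 and at 240.02, 187 and 151 CPM in mIDH1. It had the smallest p of the 10 genes, 0.043 before adjustment (log2 change -0.46 ± 0.20 SE, adjusted p = 0.205; fold 0.728, 95% interval 0.537 to 0.988), and mIDH1 replicate 1 lay above wtIDH1 replicate 1. The log2 ratio of Tap1 to Tap2 counts was 1.36, 1.51 and 1.201 in wtIDH1 and 1.84, 1.63 and 1.41 in mIDH1. It differed by 0.27 ± 0.15 SE with overlapping groups (exact permutation p = 0.2).

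Psmb9 and Tap1, which share the stretch of sequence printed above, had a ratio that was narrow within each group and lower in mIDH1. The log2 ratio of Psmb9 to Tap1 counts was -3.36, -3.25 and -3.20 in wtIDH1 and -3.60, -3.61 and -3.58 in mIDH1. The SD was 0.083 and 0.013 (n = 3 each), whereas Tap1 alone ranged from 402 to 859 CPM within mIDH1. With Psmb9 counts of 2466, 1527 and 704 in mIDH1 replicates 1 to 3, counting error alone would give a spread wider than 0.013. The closeness of the mIDH1 values is thus no measure of how tightly the genes follow each other, and the SE below draws on it. The ratio was lower in every mIDH1 library, by -0.33 ± 0.05 SE, with the smallest p the design allows (exact permutation p = 0.1, 0.35 adjusted over the 7 ratios), and it lay between -0.37 and -0.29 with any library left out. In the GENCODE annotation the exons of the genes overlap by 212 bases on opposite strands. Because the library kit does not mark strand, reads from that overlap cannot be told apart, and their part in the ratio was not tested.

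**Figure D3:**
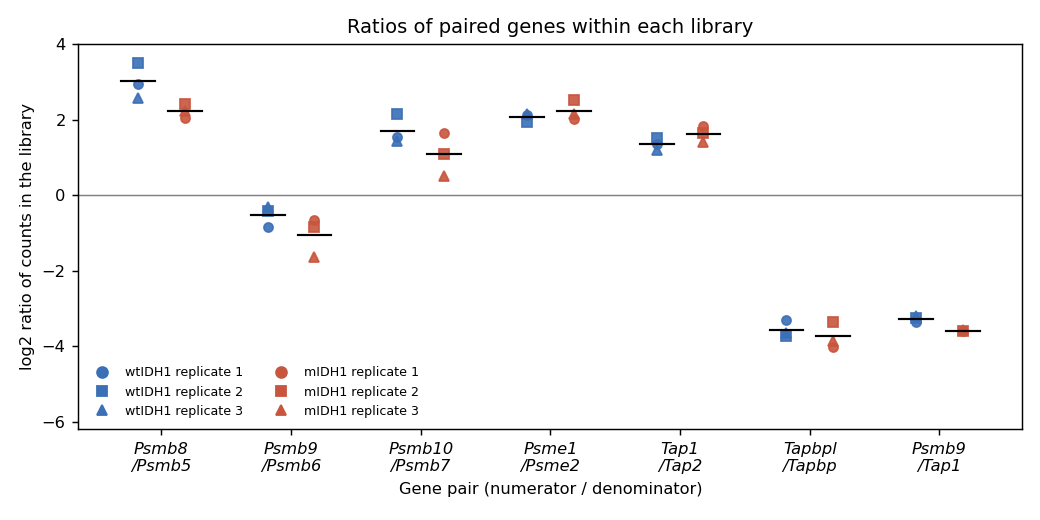
Log2 ratio of the counts of paired genes within each library, with a short line at the mean of each group of 3. Groups do not overlap for Psmb8 over Psmb5 and for Psmb9 over Tap1, both lower in mIDH1.

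None of the genes of peptide editing and trimming passed. Tapbp, which encodes tapasin (chromosome 17, 33915899 to 33929292), was at 668, 908 and 803 CPM in wtIDH1 and at 944, 640.1 and 569 CPM in mIDH1. Its highest and lowest libraries were both mIDH1 (log2 change -0.14 ± 0.21 SE, adjusted p = 0.749). Tapbpl, which encodes TAPBPR (chromosome 6, 125223933 to 125231860), was at 68.0, 67.9 and 64.3 CPM in wtIDH1 and at 58.6, 62.7 and 39.4 CPM in mIDH1. Every mIDH1 library was below every wtIDH1 library, mIDH1 replicate 2 by a small margin (log2 change -0.32 ± 0.22 SE, adjusted p = 0.433). The log2 ratio of Tapbpl to Tapbp counts differed by -0.18 ± 0.24 SE (exact permutation p = 0.5). Erap1, the trimming aminopeptidase (chromosome 13, 74639568 to 74693201), was at 131, 116 and 98.6 CPM in wtIDH1 and at 162, 138 and 127 CPM in mIDH1. Its groups overlapped by the values of wtIDH1 replicate 1 and mIDH1 replicate 3 (log2 change 0.31 ± 0.18 SE, adjusted p = 0.344; fold 1.24, 95% interval 0.948 to 1.62). In the annotation 834 exon bases of Erap1 overlap those of Cast on the opposite strand, a gene at 106 to 139 CPM in wtIDH1 and 84.7 to 136 CPM in mIDH1. Exons of Tapbp share 149 bases with Zbtb22 and 904 with the antisense gene Gm19412, those of Psmb8 498 bases with antisense Gm20496, and those of Tap2 533 bases with Gm15821.

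Compared per kilobase of exon, levels covered a wide range. Psme1 was highest, with 554 ± 7.59 CPM per kilobase in wtIDH1 and 440 ± 91.2 in mIDH1 (SD, n = 3). Tapbp at 256 and Tap1 at 229 followed in wtIDH1, with ranges that overlapped each other. Psme2 at 166 and Psmb8 at 154 formed a further pair with overlapping ranges, as did Tap2 at 74.7 and Psmb10 at 69.6. Psmb9 was at 41.9, Tapbpl at 28.4 and Erap1 at 20.2 CPM per kilobase, with ranges that stood apart. In mIDH1 the order was the same but for 3 exchanges between neighbours, Psmb8 with Psme2, Psmb10 with Tap2 and Erap1 with Tapbpl. Their levels differed less than the spread of the mIDH1 libraries in each case.

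For 8 of the 10 genes, all but Psmb8 and Tap2, the SD in CPM was larger among the mIDH1 libraries than among the wtIDH1 libraries. For these exceptions the SDs were close, 37.3 in wtIDH1 and 36.7 in mIDH1 for Psmb8 and 45.6 and 44.9 for Tap2. On the log2 scale the exception was Erap1 instead. Whole libraries also differed more within mIDH1. Pairs of mIDH1 libraries differed by 104 to 144 and pairs of wtIDH1 libraries by 50.3 to 79.4 (chi-square divided by degrees of freedom). The wider spread is thus not shown to be particular to the 10 genes, and the part of library depth in it was not tested. Among the mIDH1 libraries, replicate 1 was the highest for 9 of the 10 genes, all but Tapbpl. Replicate 3 was the lowest for 9, all but Psme2. Relative to each gene's mean over the 6 libraries on the log2 scale, the median of the 10 genes was 0.03, 0.29 and 0.14 in wtIDH1 replicates 1 to 3 and 0.28, -0.16 and -0.47 in mIDH1. The mIDH1 library with the highest levels was thus level with the highest wtIDH1 library.

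**Figure D4:**
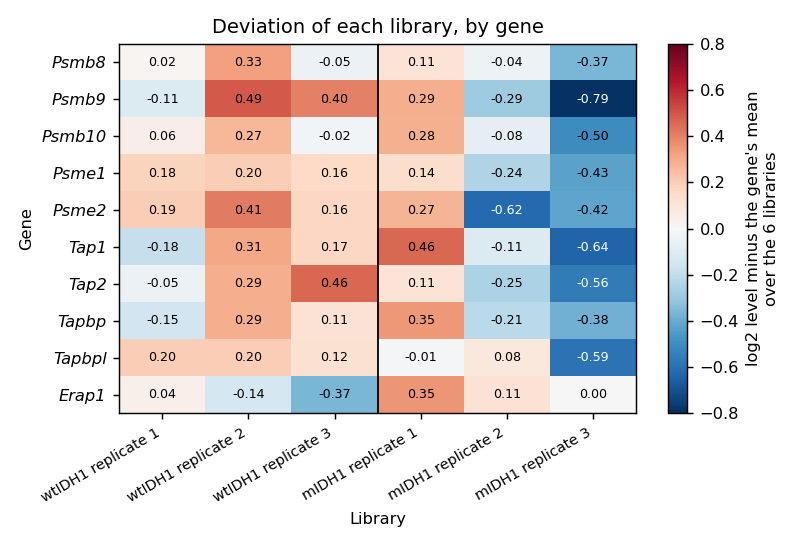
Log2 level of each gene in each library minus that gene's mean over the 6 libraries, with red above and blue below the mean. mIDH1 replicate 3 is below the mean for 9 of 10 genes, with -0.79 for Psmb9 as the lowest cell and Erap1 at its mean, while mIDH1 replicate 1 is above it for 9 of 10.

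Interferon-induced genes followed the same order of mIDH1 libraries as the 10 genes. Markers of monocytes, dendritic cells and T and NK cells followed it in part, and those of macrophages did not. Among 14 tested genes induced by interferon gamma, such as Gbp and Irg GTPases, mIDH1 replicate 1 was the highest mIDH1 library for 14 and mIDH1 replicate 3 the lowest for 13. The same held for 17 and 17 of 18 antiviral genes induced by type I interferon, and for 10 and 10 of 15 activators of class I pathway genes. The summed level of the interferon gamma targets was 5201, 2978 and 1718 CPM in mIDH1 replicates 1 to 3 and 3665 to 5878 CPM in wtIDH1. Ifng, the gene of interferon gamma itself and a product of T and NK cells, was at 64.3, 53.5 and 24.1 CPM in mIDH1 and at 36.5, 26.0 and 21.8 CPM in wtIDH1 (log2 change 0.75 ± 0.34 SE, adjusted p = 0.213). Markers of T and NK cells, such as Cd3e and Cd8a, summed to 699.5, 858 and 449 CPM in mIDH1 and to 342 to 576 CPM in wtIDH1. Replicate 2 was the highest mIDH1 library for 9 of the 11 and replicate 3 the lowest for 8, and 1, Cd4, rose. Macrophage markers such as C1qb summed to 6472, 6819 and 14179 CPM in mIDH1 and to 4283 to 5164 CPM in wtIDH1. Here 5 of 9 rose, and replicate 3 was the highest mIDH1 library for 8. Monocyte markers summed to 1494 to 2619 CPM in wtIDH1 and 2982 to 4515 CPM in mIDH1. The higher sum came mainly from Chi3l3 (means 652 and 1492 CPM, not called, groups overlapping) and F13a1 (357 and 1231 CPM), which rose. Vcan was positive too, but 4 of the 7 were negative, with a median log2 fold change of -0.44, and Ly6c2 and Plac8 fell. Replicate 3 was the lowest mIDH1 library for 6 of the 7. Dendritic cell markers summed to 402 to 553 and 456 to 810.1 CPM, mostly Itgax, the only positive one. The other 8 were negative, with a median over all 9 of -0.51, and edgeR called none, also at an unadjusted p under 0.05. Replicate 1 was the highest mIDH1 library for 6 of these 9 and replicate 3 the lowest for 5.

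Markers of the remaining cell types were mostly low, except those of microglia. Microglia markers summed to 645 to 958 CPM in wtIDH1 and 569 to 1199 CPM in mIDH1, and edgeR called none of 6 (2 at an unadjusted p under 0.05). B cell markers summed to 2.72 to 4.55 CPM and 5.43 to 12.03 CPM, with none of 4 called by edgeR and 1 at an unadjusted p under 0.05. Glioma and neural markers summed to 83.0 to 94.0 CPM over all libraries, mostly Mbp (67.4 to 84.0 CPM). Among their 4 tested genes Sox2 rose, from at most 0.151 CPM in wtIDH1 to between 0.546 and 7.30 CPM in mIDH1 (adjusted p = 0.0368). Nes had a log2 fold change of 1.62 (adjusted p = 0.0918). The others were negative, Gfap at -2.09 (adjusted p = 0.317) and Mbp at -0.12 (adjusted p = 0.742). Endothelial and pericyte markers summed to 95.9 to 131 CPM in wtIDH1 and 62.8 to 98.6 CPM in mIDH1. All 3 tested were negative, with a median of -0.98, and edgeR called none (1 at an unadjusted p under 0.05). Pecam1 made up most of that sum, and Rgs5 had 0 counts in every library. The part of these other cells in the levels of the 10 genes was not tested, and in bulk RNA fewer cells of a type and less RNA per cell cannot be told apart.

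Several regulators of the pathway fell. Of 15 activators of class I pathway genes 4 fell and none rose, where 5.39% of all genes tested fell and 2.78% rose. The log2 fold change was below 0 for each of the 15, with a median of -0.63. Nlrc5, the activator that acts on class I, Tap1 and Psmb9 promoters, fell from 499, 641 and 728 CPM to 311, 197 and 149 CPM (log2 change -1.51 ± 0.25 SE, adjusted p = 0.00372). Every mIDH1 library lay well below the wtIDH1 range. Stat2, which carries the type I interferon signal, fell by 2.13 on the log2 scale, and Nfkb1, an NF-kB subunit, and Irf8, a myeloid transcription factor, fell by 0.91 and 0.76. Irf1, a direct inducer of Psmb9 and Tap1, was at 305, 488 and 396 CPM in wtIDH1 and at 475, 289 and 178 CPM in mIDH1 (log2 change -0.34 ± 0.29 SE, adjusted p = 0.564). Its groups overlapped, with mIDH1 replicate 1 inside the wtIDH1 range. The count of activators that fell was 2 without wtIDH1 replicate 2 and 7 without mIDH1 replicate 1 or with DESeq2.

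The lists of interferon targets differed in their counts. Over all genes tested 5.39% were lower and 2.78% higher in mIDH1, so 1 call in a list of 10 is near that share. Of 18 antiviral genes induced by type I interferon, such as Oas2 and Mx2, 16 fell and none rose, with a median of -1.68. The number was 7 without wtIDH1 replicate 2 and 8 without wtIDH1 replicate 3. Of the 14 interferon gamma targets 2 fell, the chemokine gene Cxcl10 (log2 change -1.65 ± 0.40 SE, adjusted p = 0.0242, groups overlapping) and the GTPase gene Gbp6 (-0.88 ± 0.24 SE, adjusted p = 0.0443), with a median of -0.60. The count was 10 without mIDH1 replicate 1, 4 with no filter on low counts, and 1 with DESeq2. It was also 1 when wtIDH1 replicate 1 or mIDH1 replicate 3 was left out, and 0 when mIDH1 replicate 2 or either of the other wtIDH1 libraries was. Of 10 tested interferon receptor, kinase and ligand genes 1 fell, the kinase gene Tyk2 (144 ± 22.4 to 71.1 ± 6.16 CPM, SD, n = 3, log2 change -1.02 ± 0.18 SE, adjusted p = 0.00546). In that list 3 fell and 1 rose without mIDH1 replicate 1, 2 fell and 1 rose with DESeq2, and 1 rose without mIDH1 replicate 3.

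Most other genes of the proteasome did not pass, and the medians of their lists were above 0. Over all genes tested 5.39% were lower and 2.78% higher in mIDH1, so 1 call in a list of 18 is near that share. The catalytic list (Psmb5, Psmb6, Psmb7 and the thymus form Psmb11) had a median of 0.40 and no call by edgeR, DESeq2 or limma voom (1 of 4, Psmb5, at an unadjusted p under 0.05). Of 11 other 20S core subunits none passed edgeR's test (2 at an unadjusted p under 0.05) and the median was 0.15, while DESeq2 called 1 higher. Of 18 subunits of the 19S regulator 1 rose, Psmd1, a scaffold subunit, from 95.5, 73.7 and 67.3 CPM to 141, 154 and 127 CPM (log2 change 0.83 ± 0.19 SE, adjusted p = 0.0173). Of 8 other activators, inhibitors and assembly chaperones none passed with edgeR, DESeq2 or limma voom, none had an unadjusted p under 0.05, and the median was 0.19.

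Among 10 class I chains and loading chaperones 1 rose, Canx, which encodes the chaperone calnexin, from 444, 386 and 435 CPM to 676, 624 and 575 CPM (log2 change 0.57 ± 0.16 SE, adjusted p = 0.0444). The class I heavy chain genes H2-K1 (log2 fold change -0.25) and H2-D1 (-0.14) and the light chain gene B2m (0.14) did not pass, with adjusted p = 0.392, 0.662 and 0.645. Of 8 tested peptidases other than Erap1 2 rose. Lnpep, an endosomal aminopeptidase related to Erap1, went from 312, 283 and 335 CPM to 449.8, 549 and 542 CPM (log2 change 0.73 ± 0.16 SE, adjusted p = 0.0179), and Ide, the insulin-degrading enzyme, from 28.5 ± 4.37 to 51.9 ± 4.01 CPM (SD, n = 3, log2 change 0.86 ± 0.23 SE, adjusted p = 0.0347). Over all genes tested 2.78% rose, and 1 call in a list of 10 is near that share. The calls named here depended on which libraries and which design were used. With the replicate number as a block, the calls of Canx, Lnpep and Ide were lost. The peptidase count was 0 without any 1 of the wtIDH1 libraries or mIDH1 replicate 2, and 1 without mIDH1 replicate 3. With 1 library left out, Canx passed only where that library was mIDH1 replicate 3. Psmd1 did not pass when mIDH1 replicate 2, wtIDH1 replicate 2 or wtIDH1 replicate 3 was left out.

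**Figure D5:**
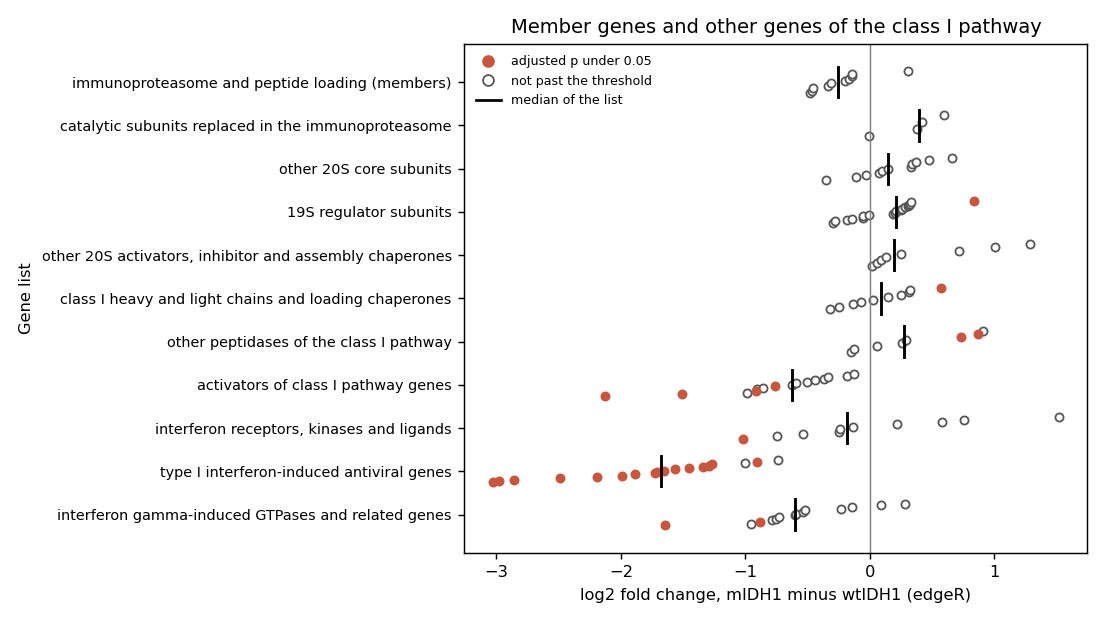
Log2 fold change of every tested gene of the members and of 10 lists of related genes, mIDH1 minus wtIDH1, with filled points for adjusted p under 0.05 and a bar at each list's median. The 10 members lie between -0.48 and 0.31 with no filled point, while 16 of 18 type I interferon-induced genes are filled and lie to the left.

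Among all genes tested, 698 were lower and 360 higher in mIDH1 at the same threshold, or 593 lower and 486 higher with scaling by library totals only. The counts were 256 and 78 without wtIDH1 replicate 2, 271 and 93 without wtIDH1 replicate 3, 402 and 156 without mIDH1 replicate 2, and 488 and 177 without wtIDH1 replicate 1. None of the 10 genes passed under any of the 8 other scalings, filters, tools and designs tried, and with 1 library left out the only call was that of Psme2 without mIDH1 replicate 1.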

How the data were processed

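Values are estimated counts as deposited by the authors, 1 column per library and unscaled. The submitters' processing notes name Bowtie2 2.2.1, TopHat2 2.0.13, HTSeq, Cuffdiff 2.1.1, Cufflinks and FastQC, and the build mm10. Their order, settings, annotation and treatment of shared reads: not given in the sources used here. In each library 1.31 to 1.61% of values were not whole to within 1e-09, and values were rounded. Per the labels' protocols, polyadenylated RNA was made into libraries with a TruSeq kit that does not mark strand.

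Genes were kept with filterByExpr at its defaults (minimum count 10, minimum total 15), which left 12950. Libraries were scaled by TMM and compared with edgeR 4.0.16 in R 4.3.3 (glmQLFit, glmQLFTest, group as only term), two-sided, with Benjamini-Hochberg adjustment over all genes tested and a threshold of 0.05. SE and 95% intervals come from the same test. Ratios used an exact permutation test over libraries. Alternatives used DESeq2 1.42.0, limma 3.58.1, other scalings and filters, a replicate block, and each library left out. No library repeated another: pairs of wtIDH1 libraries differed by 50.3 to 79.4 and pairs of mIDH1 libraries by 104 to 144 (chi-square divided by degrees of freedom).

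Simulated counts of mIDH1 and wtIDH1 libraries, with 200 genes changed and 12622 genes run, were put through the same test: 22.7% of the 97 changed by log2 1 and 57.3% of the 96 changed by log2 2 were recovered, with 3 false calls. Positions and exon lengths are from GENCODE M21 (GRCm38), and windows around gene starts are from RefSeq (GRCm38.p6). Named genes are the 10 members, the partners of each ratio, Irf1, Nlrc5, Ifng, and up to 4 genes of each list with the smallest p; 1 further gene the rule names is not reported here. H2-D1, B2m and the marker genes, outside that rule, were named after their values were seen. The members and lists were chosen with earlier results of these data known. Ly6g and Trac were not analysed here, nor was Nrdc.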

Additional observations from a re-analysis of the deposited data

How the results depend on the processing

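Of 140 values of the 10 genes under 14 other settings, 137 kept their direction and their side of the threshold. With each library left out, the log2 fold change ran from -0.38 to 0.0097 for Psmb10 and from -0.47 to 0.089 for Tap1, positive only without mIDH1 replicate 3 and never past the threshold; the cause was not tested. With each library left out in turn, 0 to 1 members, 256 to 707 of all genes and 10 to 37 genes of the related lists were called lower (23 with all libraries), and 0, 78 to 365 and 0 to 4 were called higher (4 of the lists with all libraries). With DESeq2, 715 genes and 7 list genes were higher. The correlations gave no sign that the replicate numbers pair the samples. Deviations of same-numbered libraries correlated at -0.03, 0.03 and -0.05 over genes, and not every library correlated best with its own number. Deviations within a group of 3 are tied to each other, so this check cannot exclude pairing. With the replicate block 429 genes were lower and 156 higher, and 1 list gene, of the 19S regulator, was higher, against 698, 360 and 4 without it. The block left 0 interferon gamma targets lower. All 49 ratio values under other settings moved by less than 1 SD. With a library left out this could not have come out otherwise. Dropping 1 of 3 libraries always moves a group mean by less than that group's SD. The difference in the log2 ratio of Psme1 to Psme2 fell from 0.16 to 0.010 without mIDH1 replicate 2. That of Psmb9 to Psmb6 went from -0.51 to -0.22 without mIDH1 replicate 3. No ratio difference changed sign. Median log2 fold changes of all genes shifted by at most 0.07, with library totals alone. A lone replicate of a group was never left. With at least 704 counts of each member in each library, 3 libraries per group limited the precision more than depth did. Counting error is not small beside the narrowest spreads, however. Examples are Tapbpl in wtIDH1 (SD 2.09 CPM) and the log2 ratio of Psmb9 to Tap1 in mIDH1 (SD 0.013).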
